A study of Homo sapiens with 18 samples.

Results

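The dual-specificity phosphatases DUSP1, DUSP2, DUSP4, DUSP5 and DUSP6, the Sprouty proteins SPRY1, SPRY2 and SPRY4 and the Spred proteins SPRED1 and SPRED2 are negative regulators of the RAS-ERK kinase cascade. They were chosen by name, with earlier results of these data known, and all 10 had a row among the 17026 endogenous rows of the deposited table. Polyadenylated RNA was measured in 3 human pancreatic ductal adenocarcinoma lines: BxPC-3, MiaPaCa-2 and PANC-1. In each line, cells treated with 100 nM THZ1 for 6 h were compared with cells given DMSO for the same time, each group holding 3 biological replicates, which makes 18 libraries. All groups were grown in F12 medium with serum, β-glycerophosphate and L-ascorbic acid, so that each group stands for an established line in that medium. THZ1 is a covalent inhibitor of CDK7, a kinase that phosphorylates RNA polymerase II at the start of transcription, and it also binds CDK12 and CDK13.

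Growth factor receptors and RAS activate the kinases RAF, MEK and ERK in turn, and active ERK raises transcription of many DUSP, SPRY and SPRED genes. The DUSP proteins remove phosphates from ERK and related kinases, whereas Sprouty and Spred proteins act further upstream, on the path from receptors through RAS to RAF. The cascade is commonly active in pancreatic ductal adenocarcinoma.

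Start-site sequences are shown for 3 genes. DUSP1 and DUSP6 were chosen because both were lower with THZ1 in every line. SPRY4 was chosen because it was the member that rose most in BxPC-3. Each run gives the 250 bases before the RefSeq start site on the gene's own strand (build GRCh38.p14). Capitals mark a cAMP response element (TGACGTCA), a TATA box (TATAAA) and GC boxes (GGGCGG or, on the other strand, CCGCCC).
DUSP1 (chr5:172771196-172771445, minus strand): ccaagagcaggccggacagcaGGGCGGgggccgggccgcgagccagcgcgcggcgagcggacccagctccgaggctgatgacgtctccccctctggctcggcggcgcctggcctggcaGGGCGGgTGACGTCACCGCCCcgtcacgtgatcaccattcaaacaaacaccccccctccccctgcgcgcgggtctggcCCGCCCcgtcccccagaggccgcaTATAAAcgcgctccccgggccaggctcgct
DUSP6 (chr12:89352502-89352751, minus strand): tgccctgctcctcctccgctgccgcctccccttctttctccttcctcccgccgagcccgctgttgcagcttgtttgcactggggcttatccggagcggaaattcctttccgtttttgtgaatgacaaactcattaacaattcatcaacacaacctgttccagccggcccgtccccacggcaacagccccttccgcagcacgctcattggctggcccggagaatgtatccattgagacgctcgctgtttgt
SPRY4 (chr5:142324248-142324497, minus strand): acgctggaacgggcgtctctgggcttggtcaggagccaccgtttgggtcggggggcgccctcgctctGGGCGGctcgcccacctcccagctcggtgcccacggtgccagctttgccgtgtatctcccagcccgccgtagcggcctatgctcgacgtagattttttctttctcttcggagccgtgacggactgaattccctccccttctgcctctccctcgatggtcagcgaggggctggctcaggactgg

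Matches were searched on both strands in windows of 300 bases, which end 50 bases after the start. Windows of 8 members were searched, 12 windows in all. DUSP4 was left out of the search, and DUSP5 had no window among those searched. The window of DUSP1 held 1 cAMP response element, 1 TATA box and 4 GC boxes, none overlapping. Of 35116 such windows over the genome, 1.85% held a cAMP response element, 11.5% a TATA box and 45% a GC box. The window of DUSP6 held none of these, and that of SPRY4 held a single GC box. An ETS motif (CCGGAAGT, in 4.14% of windows) and a CArG box (1.29%) were found in none of the members' windows searched. An AP-1 motif (TGANTCA, 7.71%) was found in the second window of SPRED2 alone. A match describes the letters and not the binding of a factor.

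The transcripts also differ in their 3′ ends. In the GENCODE v29 annotation, the 3′ UTR of DUSP1 held 2 copies of the nonamer TTATTTATT, a form of the AU-rich element found in many short-lived mRNAs, and none of the other 8 members searched held it. Of 1395 3′ UTRs of like length among the genes tested, 4.44% held the nonamer. One copy, in capitals, is shown because it sets DUSP1 apart among the members searched, which leave out DUSP4.
DUSP1 3′ UTR: gggctggtccTTATTTATTtaacttcacc
The shorter pentamer ATTTA stood at 5.95 per kb in DUSP1, 4.57 in DUSP2 and 4.3 in SPRED1, and at 0 in DUSP5 and 0.495 in DUSP6, beside a median of 1.63 over 11072 tested genes.

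Values are given on a rescaled form of the deposited unit, in which the mean library sums to 1000000 while the ratios between libraries stay as the authors deposited them. A gene is called where limma's adjusted p was under 0.05, with Benjamini-Hochberg adjustment over all 15354 genes tested, and log2 differences are of the value plus 1, which understates changes of low genes. Libraries held 6352482 to 20910423 recovered reads. PANC-1 DMSO replicate 1 was the shallowest and stood apart: its values scattered about the fit with an SD of 0.636 log2 units, where the other libraries had 0.126 to 0.378. Of the 7 ductal markers listed 6 had a row, and the keratins KRT8, KRT18 and KRT19 were present in all lines. The ductal markers KRT7 and CDH1 were at 1888 or above and 285 or above in BxPC-3, but at most 2.42 and 0.216 in MiaPaCa-2 and at most 7.26 and 4.89 in PANC-1, where VIM was at 1200 or above. MUC1 went the other way, at 5.64 to 9.1 with DMSO in BxPC-3, 9.71 to 12.7 in MiaPaCa-2 and 14.7 to 42.8 in PANC-1. Of the 10 markers listed for other pancreas cells 3 had a row; COL3A1 was at 119 to 246 in MiaPaCa-2 and at most 3.63 elsewhere, COL1A1 was at most 53.8 and VWF at most 6.79. Their part in the results was not tested.

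The reference for a level matters here. Spike-in RNA of the ERCC set was added to the extracted RNA, and its summed rescaled value was 5043 to 5768 in BxPC-3 with THZ1 and 2111 to 2495 with DMSO. In MiaPaCa-2 it was 3890 to 5399 with THZ1 and 1710 to 1923 with DMSO, and in PANC-1 2199 to 3096 with THZ1 and 1963 to 2580 with DMSO. The endogenous rows summed to 1319129.5 to 1350245.7 in BxPC-3 with THZ1 and to 800551.7 to 808904.7 with DMSO. In MiaPaCa-2 they summed to 1306987.7 to 1328177.4 and 835239.5 to 844038.1, and in PANC-1 to 835505.0 to 856249.0 and 773010.5 to 1000174.5. Part of the higher ERCC sum in BxPC-3 and MiaPaCa-2 was thus shared by the endogenous rows. On the deposited scale the median of all genes moved by 0.25 in BxPC-3, 0.19 in MiaPaCa-2 and −0.07 in PANC-1 (log2, THZ1 minus DMSO). On the ERCC scale the same medians were −0.64, −0.85 and −0.31. Fewer cells and less RNA per cell cannot be told apart in these bulk libraries, and since the spike-in was added to RNA rather than to cells, neither scale is per cell.

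More of the feedback genes, a list chosen with earlier results of these data known, fell than rose with THZ1 in each line on the deposited scale. In BxPC-3 6 of 10 members were called lower and 2 higher, where 18.9% of all genes tested were called lower, 40% higher and 59% in either direction. In MiaPaCa-2 5 were lower and 2 higher, where 19.8% of all genes were lower, 36.5% higher and 56.3% either. In PANC-1 4 were lower and none higher, where 0.228% of all genes were lower, 0.274% higher and 0.501% either. The median response of the members was −0.82, −0.23 and −0.08 in BxPC-3, MiaPaCa-2 and PANC-1. DUSP1, DUSP6 and SPRY1 were called lower in all 3 lines, as were 0.143% of all genes (22 genes). Their PANC-1 calls were near the threshold, with limma adjusted p of 0.0351, 0.0472 and 0.0499. Of the 18 fits that left out 1 library, 5, 3 and 4 kept them.

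Counted by library, the THZ1 and DMSO groups of BxPC-3 did not overlap for 10 members, 4 higher and 6 lower with THZ1, where 76.1% of all genes did not overlap, 51.1% higher and 25% lower. In MiaPaCa-2 7 members did not overlap, 2 higher and 5 lower, where 73.8% of all genes did not, 47.6% higher and 26.2% lower. In PANC-1 5 members did not overlap, all lower, where 17.1% of all genes did not, 8.34% higher and 8.73% lower. The 5 apart in PANC-1 were DUSP1, DUSP2, DUSP6, SPRY1 and SPRY4.

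**Figure D1:**
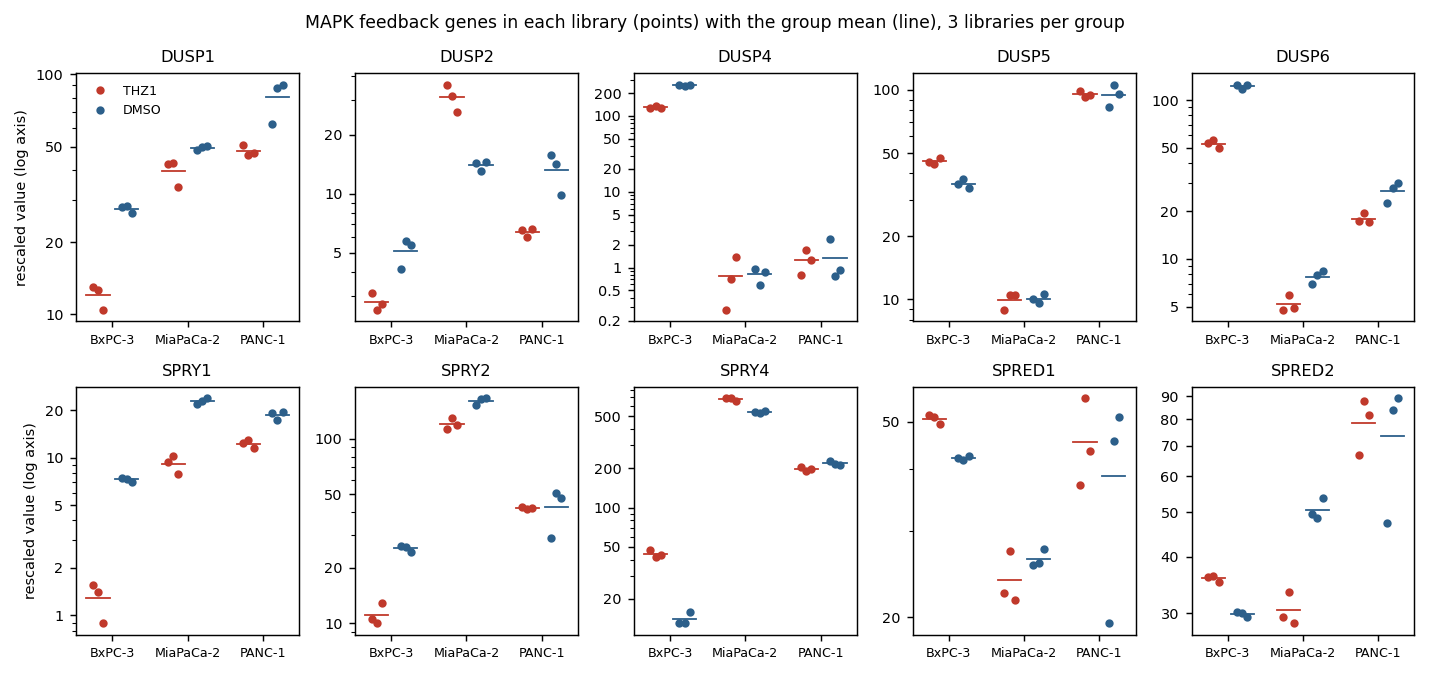
Rescaled value (log axis) of each member in each library, with THZ1 in red left of DMSO in blue for each line; points are the 3 libraries of a group and the line is their mean. DUSP4 lies at 126 to 260 in BxPC-3 and at or below 2.37 in the other lines, and SPRY4 in BxPC-3 lies at 42 to 47.2 with THZ1 and at 13 to 15.8 with DMSO.

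The nuclear phosphatases that act on ERK and on the stress kinases come first. DUSP1, an immediate early gene whose product removes phosphates from ERK, JNK and p38, lies at chr5:172768090-172771195 on the minus strand (GRCh38), with a span of 3.11 kb. In BxPC-3 it had 13.0, 12.6 and 10.4 with THZ1, against 28.0, 28.4 and 26.6 with DMSO. MiaPaCa-2 cells had 42.5, 42.7 and 34.0 with THZ1, against 48.5, 49.8 and 50.4 with DMSO. PANC-1 cells had 50.7, 46.4 and 47.3 with THZ1, against 62.0, 87.7 and 90.8 with DMSO. All THZ1 libraries were below all DMSO libraries in each line. The log2 difference was −1.14 ± 0.13 (SE, adjusted p = 1.24e-06) in BxPC-3, −0.32 ± 0.13 (adjusted p = 0.0448) in MiaPaCa-2 and −0.71 ± 0.13 (adjusted p = 0.0351) in PANC-1, by limma. The fall was larger in BxPC-3 than in MiaPaCa-2, with a difference between the responses of 0.82 ± 0.18 (MiaPaCa-2 minus BxPC-3, adjusted p = 0.00625), which was not called on the ERCC scale (0.65, adjusted p = 0.191). The MiaPaCa-2 call was lost without any 1 of 11 of the 18 libraries, with the smallest difference, −0.21, and the largest adjusted p, 0.21, without MiaPaCa-2 THZ1 replicate 3.

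DUSP2, another inducible nuclear phosphatase of ERK and the stress kinases, went opposite ways in the lines on the deposited scale. In BxPC-3 it had 3.12, 2.55 and 2.75 with THZ1, against 4.12, 5.73 and 5.47 with DMSO. The MiaPaCa-2 libraries had 36, 31.5 and 26.2 with THZ1, against 14.3, 13.1 and 14.5 with DMSO. The PANC-1 libraries had 6.51, 6.0 and 6.57 with THZ1, against 15.8, 14.1 and 9.88 with DMSO. The groups did not overlap in any line. DUSP2 rose by 1.10 ± 0.16 in MiaPaCa-2 (adjusted p = 1.93e-05), and fell by 0.68 ± 0.16 in BxPC-3 (adjusted p = 0.00145) and by 0.93 ± 0.16 in PANC-1 (adjusted p = 0.0237; log2, limma). Of all genes tested, 1.32% were called higher in one line and lower in another. The response in PANC-1 minus that in MiaPaCa-2 was −2.03 ± 0.22 (adjusted p = 1.01e-05), and that in MiaPaCa-2 minus that in BxPC-3 was 1.77 ± 0.22 (adjusted p = 7.27e-05). On the ERCC scale the MiaPaCa-2 value turned to −0.14 (adjusted p = 0.455), while both differences between lines stayed called, at −1.06 (adjusted p = 0.00144) and 1.39 (adjusted p = 0.000874).

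DUSP4, a nuclear phosphatase whose own transcription follows ERK activity, was abundant in BxPC-3 alone. It had 126, 134 and 128 with THZ1 in that line, against 253, 250.1 and 260 with DMSO, and the groups did not overlap. The log2 difference was −0.97 ± 0.23 (adjusted p = 0.00184). In MiaPaCa-2 it had 0.275, 0.714 and 1.37 with THZ1, against 0.971, 0.593 and 0.884 with DMSO. In PANC-1 it had 0.806, 1.72 and 1.28 with THZ1, against 2.37, 0.767 and 0.924 with DMSO. These 12 libraries held 3 to 26 reads of DUSP4 each, and its groups overlapped in both lines. The 95% intervals of the response, −0.56 to 0.43 in MiaPaCa-2 and −0.50 to 0.48 in PANC-1, are narrowed by the added 1 at such levels. No change of DUSP4 was called there on the deposited scale; on the ERCC scale it was called lower in MiaPaCa-2 (−0.60, adjusted p = 0.0284), at 3 to 24 reads per library, and not in PANC-1 (−0.14, adjusted p = 0.703).

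DUSP5 and DUSP6 act on ERK with little effect on the stress kinases, DUSP5 in the nucleus and DUSP6 in the cytoplasm. DUSP6 (chr12:89347232-89353271, minus strand, GRCh38) had 53.7, 56.1 and 50.1 in BxPC-3 with THZ1, against 124, 117 and 125 with DMSO. MiaPaCa-2 cells had 4.76, 5.89 and 4.95 with THZ1, against 6.92, 7.98 and 8.37 with DMSO. PANC-1 cells had 17.2, 19.5 and 17.0 with THZ1, against 22.4, 27.9 and 30.2 with DMSO. THZ1 and DMSO libraries were apart in each line. The log2 difference was −1.18 ± 0.11 (adjusted p = 1.93e-07) in BxPC-3, −0.50 ± 0.11 (adjusted p = 0.00131) in MiaPaCa-2 and −0.55 ± 0.11 (adjusted p = 0.0472) in PANC-1, by limma. The response was smaller in MiaPaCa-2 than in BxPC-3 by 0.68 ± 0.16 (adjusted p = 0.00882) and in PANC-1 than in BxPC-3 by 0.63 ± 0.16 (adjusted p = 0.00505). On the ERCC scale the first of these was 0.74 and was not called (adjusted p = 0.155), and the second was 1.52 (adjusted p = 0.000684).

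DUSP5 had 45.5, 44.5 and 47.5 in BxPC-3 with THZ1, against 35.5, 37.5 and 33.9 with DMSO. It was called higher there by 0.35 ± 0.09 (log2, adjusted p = 0.00386), a direction that holds on the deposited scale: the value was −0.81 on the ERCC scale (adjusted p = 0.00106) and −0.36 with equal library sums (adjusted p = 0.0322), and it was 0.04 and not called with TMM factors (adjusted p = 0.811). In MiaPaCa-2 it ranged from 8.89 to 10.5 with THZ1 and from 9.65 to 10.6 with DMSO, with a difference of −0.02 (95% interval −0.22 to 0.18). In PANC-1 it ranged from 92.9 to 98.5 with THZ1 and from 83.0 to 106 with DMSO, with a difference of 0.02 (−0.18 to 0.22). The groups overlapped in both of these lines.

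**Figure D2:**
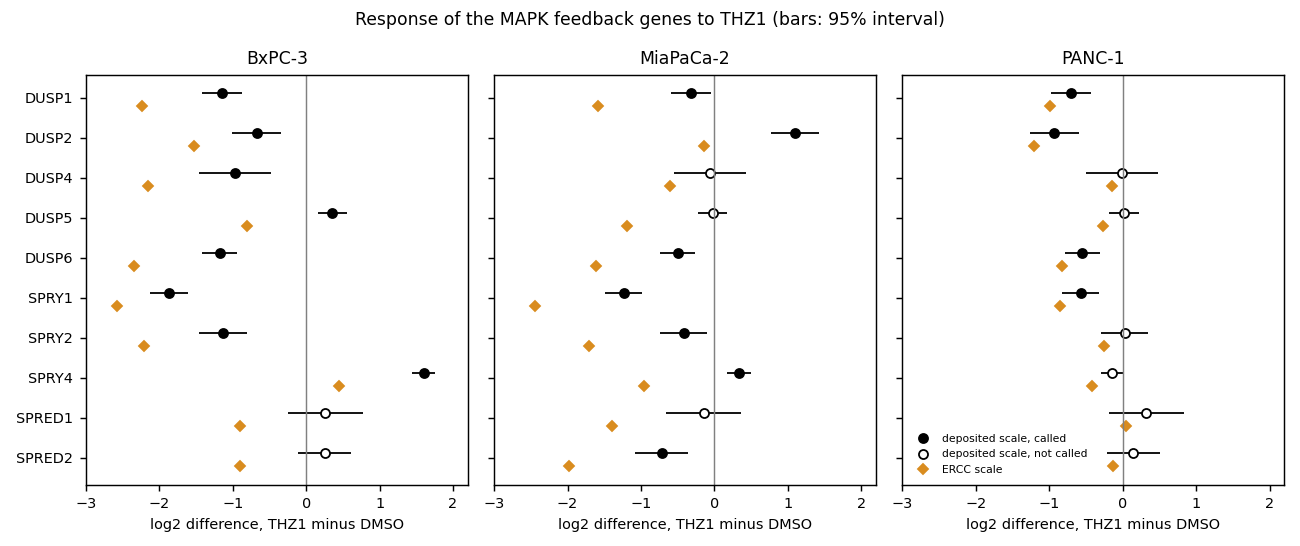
Log2 difference of each member, THZ1 minus DMSO, in each line. Circles with 95% intervals give the deposited scale, filled where called, and diamonds give the ERCC scale; on the ERCC scale all members but SPRY4 lie below 0 in BxPC-3, and all lie below 0 in MiaPaCa-2.

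The Sprouty genes did not move as a block. SPRY1 (chr4:123396795-123403760, plus strand, GRCh38), an inhibitor of receptor tyrosine kinase signalling to ERK, had the largest fall of any member in BxPC-3 and in MiaPaCa-2 on the deposited scale. In BxPC-3 it had 1.56, 1.40 and 0.888 with THZ1, against 7.49, 7.32 and 7.03 with DMSO. The MiaPaCa-2 libraries had 9.34, 10.3 and 7.89 with THZ1, against 21.9, 22.8 and 24.0 with DMSO. The PANC-1 libraries had 12.3, 13.0 and 11.5 with THZ1, against 19.3, 17.4 and 19.6 with DMSO. The groups were apart in every line. The log2 difference was −1.87 ± 0.12 (adjusted p = 2.77e-09) in BxPC-3, −1.24 ± 0.12 (adjusted p = 3.53e-07) in MiaPaCa-2 and −0.57 ± 0.12 (adjusted p = 0.0499) in PANC-1, by limma. In BxPC-3 the THZ1 libraries held 11 to 20 reads of SPRY1. The fall there was called in all 30 alternatives, but its size ranged from −2.81 to −0.97. PANC-1 responded less than BxPC-3, by 1.30 ± 0.17 (adjusted p = 2.77e-05), and less than MiaPaCa-2, by 0.66 ± 0.17 (adjusted p = 0.00649). MiaPaCa-2 responded less than BxPC-3 by 0.63 ± 0.17 (adjusted p = 0.0207), which was 0.14 and not called on the ERCC scale (adjusted p = 0.824).

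SPRY2, a Sprouty with the same general role, had 10.5, 9.95 and 12.9 in BxPC-3 with THZ1, against 26.3, 25.9 and 24.2 with DMSO. In MiaPaCa-2 it had 113, 129 and 119 with THZ1, against 152, 165 and 167 with DMSO. In PANC-1 it had 42.6, 41.5 and 42.0 with THZ1, against 29, 50.5 and 47.6 with DMSO, where the lowest value is that of replicate 1. The groups were apart in BxPC-3 and MiaPaCa-2 and overlapped in PANC-1. The log2 difference was −1.13 ± 0.15 (adjusted p = 8.19e-06) in BxPC-3 and −0.42 ± 0.15 (adjusted p = 0.0273) in MiaPaCa-2, by limma. In PANC-1 it was 0.03 (95% interval −0.29 to 0.35), and −0.22 without PANC-1 DMSO replicate 1. The PANC-1 response differed from that of BxPC-3 by 1.16 ± 0.21 (adjusted p = 0.000496). The MiaPaCa-2 call was lost, with adjusted p of 0.0649 to 0.0869, without THZ1 replicate 1 or 3 or DMSO replicate 2 or 3 of that line.

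SPRY4 (chr5:142310427-142326455, minus strand, GRCh38), which also restrains ERK activation, moved the other way in BxPC-3. It had 47.2, 42.0 and 43.5 with THZ1, against 13.0, 13.2 and 15.8 with DMSO, and the groups were far apart. The log2 difference was 1.60 ± 0.08 (adjusted p = 1.66e-10), a 3.02-fold rise, and it was 0.45 on the ERCC scale (adjusted p = 0.0269), where 1.35% of all genes were called higher. MiaPaCa-2 cells had 692, 693 and 654 with THZ1, against 540.3, 531 and 546 with DMSO. The groups did not overlap, and the difference of 0.33 ± 0.08 (adjusted p = 0.00146) was called higher on the deposited scale. Its sign turned on the ERCC scale (−0.96, adjusted p = 4.72e-05) and with equal sums (−0.32, adjusted p = 0.00752), and it was 0.12 and not called with TMM factors (adjusted p = 0.308). PANC-1 cells had 205, 192 and 199 with THZ1, against 227, 217 and 213 with DMSO, a difference of −0.14 (95% interval −0.30 to 0.02) that was not called although the groups did not overlap. The response lay below that of BxPC-3 in PANC-1, with a difference of −1.74 ± 0.11 (adjusted p = 3.8e-08), and in MiaPaCa-2, with −1.26 ± 0.11 (adjusted p = 1.99e-06).

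Ratios of reads between members of the same library do not depend on any scale between libraries. The pairs were chosen after their values were seen, and with 3 libraries against 3 an exact two-sided permutation test cannot go below p = 0.1. The ratio of SPRY4 to SPRY2 reads was 4.49, 4.22 and 3.37 in BxPC-3 with THZ1, against 0.495, 0.509 and 0.655 with DMSO (exact p = 0.1). SPRY4 thus went to the larger share of the pair in every treated library of that line. In MiaPaCa-2 the ratio was 6.12, 5.36 and 5.49 with THZ1, against 3.56, 3.23 and 3.27 with DMSO (exact p = 0.1). In PANC-1 it was 4.8, 4.64 and 4.74 with THZ1, against 7.82, 4.29 and 4.48 with DMSO, where the groups overlapped (exact p = 1).

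The ratio of DUSP5 to DUSP6 reads was higher with THZ1 in all 3 lines without overlap. It averaged 0.863 ± 0.078 with THZ1 and 0.293 ± 0.027 with DMSO in BxPC-3 (SD, n = 3 each; exact permutation p = 0.1). It averaged 1.92 ± 0.18 with THZ1 and 1.31 ± 0.13 with DMSO in MiaPaCa-2, and 5.36 ± 0.51 with THZ1 and 3.55 ± 0.35 with DMSO in PANC-1 (exact permutation p = 0.1 in each). In reads, DUSP5 thus stood higher relative to DUSP6 with THZ1 in each line. On the deposited scale DUSP6 was called lower in each line, whereas DUSP5 was called higher in BxPC-3 and in neither other line (−0.02 in MiaPaCa-2 and 0.02 in PANC-1). Protein was not measured. For DUSP2 over DUSP1 the groups were apart in MiaPaCa-2 alone, at 0.785 ± 0.056 with THZ1 and 0.282 ± 0.017 with DMSO (exact permutation p = 0.1).

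**Figure D3:**
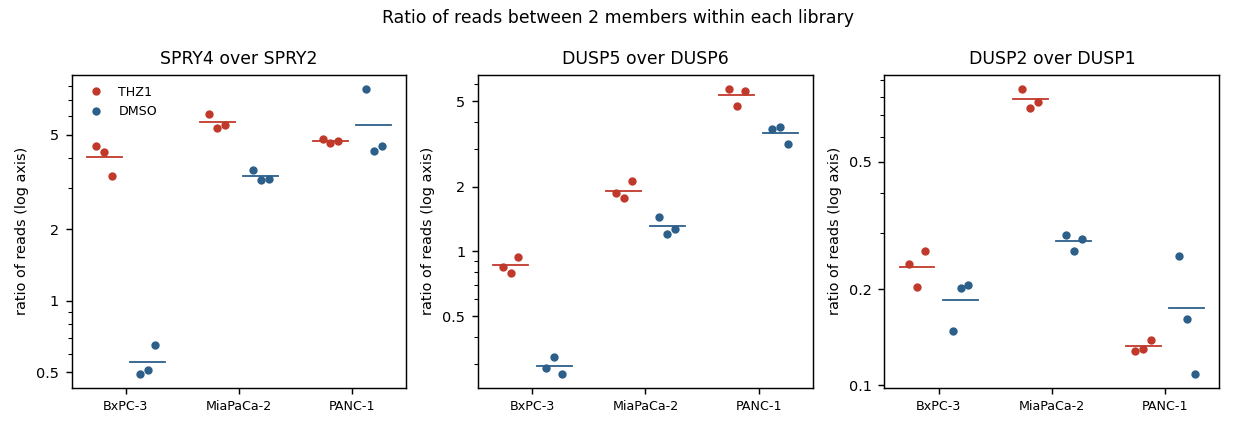
Ratio of reads between 2 members within each library (log axis), with THZ1 in red left of DMSO in blue; points are libraries and the line is the mean of 3. SPRY4 over SPRY2 in BxPC-3 lies at 3.37 to 4.49 with THZ1 and at 0.495 to 0.655 with DMSO, and DUSP5 over DUSP6 is higher with THZ1 in every line.

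The Spred genes, whose products bring the RAS inactivator neurofibromin to the membrane, span 105 kb (SPRED1) and 122 kb (SPRED2), more than the 2.27 to 17.6 kb of the other members. SPRED1 had 51.6, 51.0 and 49.4 in BxPC-3 with THZ1, against 42.2, 41.7 and 42.5 with DMSO. The MiaPaCa-2 libraries had 22.4, 27.3 and 21.7 with THZ1, against 25.5, 25.8 and 27.6 with DMSO. The PANC-1 libraries had 37.2, 55.9 and 43.5 with THZ1, against 19.4, 45.7 and 51.0 with DMSO. The groups were apart in BxPC-3 only, and no response was called on the deposited scale: the 95% intervals were −0.25 to 0.77 in BxPC-3, −0.66 to 0.37 in MiaPaCa-2 and −0.19 to 0.83 in PANC-1. Without PANC-1 DMSO replicate 1, whose 19.4 is the lowest value, the BxPC-3 rise of 0.26 was called (adjusted p = 0.028), since all groups share 1 estimate of the spread, and the PANC-1 value was −0.10. That rise was close to the median of all genes in BxPC-3, 0.25. On the ERCC scale SPRED1 was called lower in BxPC-3 (−0.90, limma adjusted p = 0.0216) and in MiaPaCa-2 (−1.39, adjusted p = 0.000812), and not in PANC-1 (0.04).

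SPRED2 had 36.1, 36.2 and 35.2 in BxPC-3 with THZ1, against 30.2, 30.1 and 29.5 with DMSO. In MiaPaCa-2 it had 29.4, 33.5 and 28.5 with THZ1, against 49.6, 48.7 and 53.9 with DMSO. In PANC-1 it had 66.7, 87.7 and 81.9 with THZ1, against 47.4, 83.8 and 89.3 with DMSO. It fell in MiaPaCa-2 by 0.72 ± 0.17 (log2, adjusted p = 0.00185), with no overlap of the groups. In BxPC-3 the difference of 0.25 was not called (95% interval −0.11 to 0.61), but was called without PANC-1 DMSO replicate 1 (adjusted p = 0.00839), and in PANC-1 it was 0.14 (−0.22 to 0.50). The BxPC-3 value matched the median of all genes there, 0.25, and on the ERCC scale SPRED2 was called lower in that line (−0.90, limma adjusted p = 0.00591). The MiaPaCa-2 response lay below that of BxPC-3, with a difference of −0.97 ± 0.24 (adjusted p = 0.0126) that was not called on the ERCC scale (−1.08, adjusted p = 0.0842) or with TMM factors (−0.87, adjusted p = 0.0824).

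On the ERCC scale 9 members were called lower and 1, SPRY4, higher in BxPC-3, where 59.1% of all genes were lower and 1.35% higher. In MiaPaCa-2 9 were lower and none higher, with DUSP2 not called and with DUSP4 called at the few reads given above, where 73.1% of all genes were lower and 1.47% higher. In PANC-1 the same 4 members as on the deposited scale, DUSP1, DUSP2, DUSP6 and SPRY1, were lower, where 18.2% of all genes were lower. The median over the members was −1.84 in BxPC-3, −1.49 in MiaPaCa-2 and −0.34 in PANC-1.

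The PANC-1 calls rest on a fit that shares its spread among the 6 groups. With PANC-1 libraries alone no gene was called, and DUSP1, DUSP2, DUSP6 and SPRY1 each had an adjusted p of 0.76. Without any 1 of the PANC-1 THZ1 libraries 0 members were called, and without 1 library of another line 1 to 3 were. Of the 18 fits that left out 1 library, DUSP2 was called in 15, DUSP1 in 5, SPRY1 in 4 and DUSP6 in 3. Without PANC-1 DMSO replicate 1, 2 or 3 all 4 were called; without replicate 1 they were −0.88 for DUSP1 (adjusted p = 8.06e-06), −0.80 for DUSP2 (adjusted p = 0.0039), −0.67 for DUSP6 (adjusted p = 0.000441) and −0.56 for SPRY1 (adjusted p = 0.0137), where 1.31% of all genes were called lower and 6.81% in either direction. edgeR called 1 member, and DESeq2 called 4.

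Under DMSO the lines differed most in DUSP4. Its level was lower in MiaPaCa-2 than in BxPC-3, with a log2 difference of −7.14 ± 0.23 (adjusted p = 7.19e-14), and lower in PANC-1 than in BxPC-3, with −6.82 ± 0.23 (adjusted p = 1.94e-13). PANC-1 and MiaPaCa-2 did not differ beyond their spread (0.32, PANC-1 minus MiaPaCa-2, adjusted p = 0.251). DUSP6 averaged 26.9 ± 4.0 in PANC-1, 7.75 ± 0.75 in MiaPaCa-2 and 122 ± 4.7 in BxPC-3 (SD, n = 3 each), called between each pair. SPRY4 averaged 219 ± 7.3 in PANC-1, 539 ± 7.6 in MiaPaCa-2 and 14.0 ± 1.6 in BxPC-3, also called between each pair. BxPC-3 thus had the highest DUSP6 and the lowest SPRY4, and MiaPaCa-2 the lowest DUSP6 and the highest SPRY4.

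DUSP5 was at 94.8 ± 11.6 in PANC-1, 10.1 ± 0.48 in MiaPaCa-2 and 35.6 ± 1.9 in BxPC-3, and SPRY2 was at 42.4 ± 11.7 in PANC-1, 161 ± 8.0 in MiaPaCa-2 and 25.4 ± 1.1 in BxPC-3, each called between all pairs. DUSP1 was at 80.2 ± 15.8 in PANC-1, 49.6 ± 0.96 in MiaPaCa-2 and 27.6 ± 0.95 in BxPC-3; the difference between PANC-1 and MiaPaCa-2 was 0.66 (adjusted p = 0.000285), but 0.37 and not called on the ERCC scale (adjusted p = 0.117). DUSP2 and SPRY1 were called higher in PANC-1 and in MiaPaCa-2 than in BxPC-3. Between PANC-1 and MiaPaCa-2, DUSP2 did not differ beyond its spread (−0.09, PANC-1 minus MiaPaCa-2, adjusted p = 0.631). SPRY1 was at 17.4 to 19.6 in PANC-1 and at 21.9 to 24.0 in MiaPaCa-2, without overlap, and its difference of −0.28 was not called on the deposited scale (adjusted p = 0.0606) but was on the ERCC scale (−0.57, adjusted p = 0.0109). SPRED2 was higher in PANC-1 (1.22) and in MiaPaCa-2 (0.74) than in BxPC-3, and SPRED1 was lower in MiaPaCa-2 than in BxPC-3 (−0.66, adjusted p = 0.0252). The SPRED1 call was lost on the ERCC scale (−0.30, adjusted p = 0.431) and without BxPC-3 DMSO replicate 1, 2 or 3 or MiaPaCa-2 DMSO replicate 1 or 2 (adjusted p of 0.053 to 0.0628), and that of SPRED2 between MiaPaCa-2 and BxPC-3 with TMM factors (0.53, adjusted p = 0.0521). In MiaPaCa-2 against BxPC-3 6 members were called higher and 4 lower, where 37.5% of all genes were higher, 25.1% lower and 62.6% either. In PANC-1 against BxPC-3 7 were higher and 2 lower, where 33.7% of all genes were higher, 25.4% lower and 59.1% either. In PANC-1 against MiaPaCa-2 4 were higher and 2 lower, where 28% of all genes were higher, 32.8% lower and 60.8% either. On the ERCC scale 2 were higher and 3 lower there, where 2985 of 15354 genes were higher and 6343 lower. SPRED2, among the 4 higher (0.47, limma adjusted p = 0.0236), was called in 21 of 30 alternatives and was not called on the ERCC scale (0.18, adjusted p = 0.566).

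Between genes, levels were compared per kb of exon in GENCODE v29. Under DMSO the leading members were DUSP4 (35.0 per kb) and DUSP6 (26.8 per kb) in BxPC-3, SPRY4 (108 per kb) and SPRY2 (53.0 per kb) in MiaPaCa-2, and SPRY4 (44.0 per kb), DUSP1 (39.7 per kb) and DUSP5 (37.1 per kb) in PANC-1. In PANC-1 SPRY4 and DUSP5 had SDs of 1.5 and 4.5 per kb, and DUSP1, with an SD of 7.8 per kb, was not set apart from either. BxPC-3 with THZ1 was led by DUSP5 (17.9 per kb) and DUSP4 (17.8 per kb), within 1 SD of each other, and SPRY4 stood at 8.89 per kb there, against 2.81 per kb with DMSO.

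The response differed between MiaPaCa-2 and BxPC-3 for 7 members, 5 higher and 2 lower in MiaPaCa-2, where 6.14% of all genes were called higher, 7.66% lower and 13.8% either. Between PANC-1 and BxPC-3 it differed for 5 members, 4 higher and 1 lower in PANC-1, where 11.9% of all genes were higher, 30.8% lower and 42.7% either. Between PANC-1 and MiaPaCa-2 it differed for 4 members, 2 in each direction, where 11.6% of all genes were higher, 27.4% lower and 38.9% either. These comparisons share libraries and are not independent. The directions depend on the scale. On the ERCC scale 2 members were higher, DUSP2 and DUSP4, and 1 lower, SPRY4, for MiaPaCa-2 against BxPC-3, where 2.53% of all genes were higher and 5.35% lower. For PANC-1 against BxPC-3 5 were higher and 1 lower on that scale, where 28.9% of all genes were higher and 1.59% lower. For PANC-1 against MiaPaCa-2 6 were higher, DUSP5, DUSP6, SPRY1, SPRY2, SPRED1 and SPRED2, and 1 lower, DUSP2, where 42% of all genes were higher and 1.6% lower.

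The genes most like each member over the 18 libraries, by Pearson's r of log2 values among 7195 genes with a mean of at least 20, follow mostly the difference between lines, which the libraries of a line share. They were AKAP12 for DUSP5 (r = 0.996), OAS2 for DUSP4 (r = 0.995), KLF6 for SPRY4 (r = 0.988), AJUBA for DUSP6 (r = 0.985), ANGEL2 for SPRY2 (r = 0.985), MAPK6 for SPRED1 (r = 0.973), ARHGAP19 for SPRED2 (r = 0.965) and COIL for DUSP1 (r = 0.955). DUSP2 and SPRY1 had means under 20. Among the members themselves, DUSP6 ran with DUSP4 (r = 0.879) and opposite to SPRY4 (r = −0.977).

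Of the other family genes, 12 of 15 listed had a row, and in BxPC-3 4 were higher and 6 lower with THZ1, where 40% of all genes were higher and 18.9% lower (median −0.15, against −0.82 for the members and 0.25 for all genes). DUSP16, a phosphatase of JNK and p38, fell by 1.59 in BxPC-3 and by 1.42 in MiaPaCa-2 (adjusted p = 1.31e-07 and 6.52e-07). DUSP7, a cytoplasmic ERK phosphatase related to DUSP6, fell by 0.85 in BxPC-3 and 1.07 in MiaPaCa-2 (adjusted p = 1.8e-08 and 3.75e-09). DUSP18 fell by 1.17 and 0.96 in the same lines (limma adjusted p = 0.00022 and 0.0013), at 6 to 9 and 5 to 14 reads per THZ1 library. It was called lower in all 30 alternatives in both lines, but the size ranged from −2.45 to −0.43 in BxPC-3 and from −1.76 to −0.39 in MiaPaCa-2. DUSP9 (1.06), DUSP22 (0.80) and DUSP12 (0.40) were higher in BxPC-3; on the ERCC scale these were 0.13, −0.35 and −0.69, and DUSP12 was not called with TMM factors (0.11, adjusted p = 0.581). In MiaPaCa-2 1 was higher and 5 lower, where 36.5% of all genes were higher and 19.8% lower (median −0.23), and in PANC-1 limma called none, where 0.501% of all genes were called (median −0.08); 2 had an unadjusted p under 0.05.

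The list of other ERK output genes was mixed. Of its 13 genes 3 were higher and 2 lower with THZ1 in BxPC-3, where 40% and 18.9% of all genes were. In MiaPaCa-2 4 were higher and 4 lower, where 36.5% and 19.8% of all genes were, and in PANC-1 0 were higher and 2 lower, where 0.274% and 0.228% were. The medians were 0.04 in BxPC-3, −0.06 in MiaPaCa-2 and −0.37 in PANC-1. IER3, an immediate early gene of cell survival, rose by 1.91 in BxPC-3 and 2.17 in MiaPaCa-2 (adjusted p = 1.71e-06 and 5.49e-07), and these stayed higher on the ERCC scale. EPHA2, a receptor tyrosine kinase, rose by 1.12 in BxPC-3 (−0.07 on the ERCC scale) and fell by 0.30 in MiaPaCa-2. FOSL1, an AP-1 subunit, fell by 0.93 in MiaPaCa-2. In BxPC-3 ETV4, an ETS factor, was higher by 0.45 (adjusted p = 0.0391), but was lower on the ERCC scale (−0.69), and the call was lost without any 1 library of that line (adjusted p of 0.0638 to 0.104). EPHA4, another such receptor, fell by 0.64 in MiaPaCa-2 (adjusted p = 0.0434), a call that was kept without 5 of the 18 libraries in turn and lost without each of the others (adjusted p up to 0.107), and IL17RD, an inhibitor of FGF receptor signalling, was called in no line (−0.42, −0.33 and −0.37). The 2 genes lower in PANC-1 were FOS (−1.42) and EGR1 (−1.25), which in MiaPaCa-2 were higher by 1.15 and 1.57 on the deposited scale; on the ERCC scale the MiaPaCa-2 values were −0.13 (adjusted p = 0.5) and 0.28 (adjusted p = 0.159), neither called. They were named after their values were seen, as a count under 5.

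**Figure D4:**
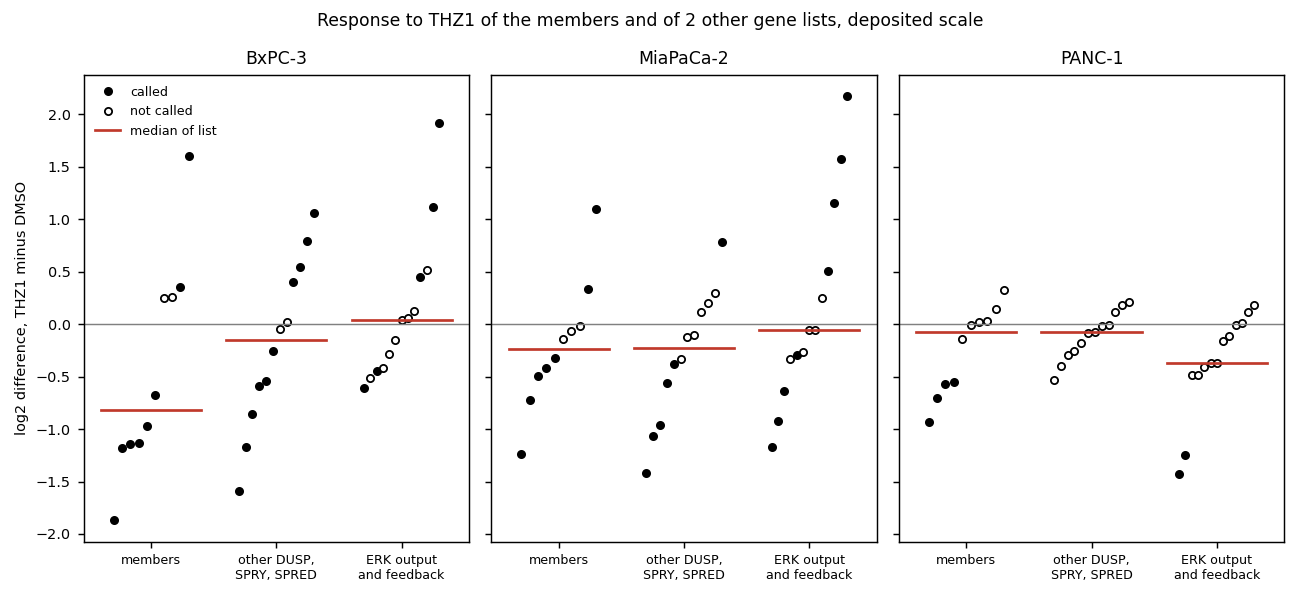
Log2 difference, THZ1 minus DMSO, on the deposited scale for the 10 members, 12 other DUSP, SPRY and SPRED genes and 13 ERK output and feedback genes in each line. Each point is a gene, filled where called, and the red line is the median of the list; in BxPC-3 the median is −0.82 for the members and −0.15 for the other family genes.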

How the data were processed

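The authors deposited 1 table of 17026 endogenous and 38 ERCC rows for 18 libraries, made with STAR on hg19 per the submitters' processing notes; the sources used here name no counting program, annotation or filter. Its deposited signal is whole reads divided by 1 whole number per library: 100.0% of the values gave whole reads within 0.001. Values were multiplied by 17.6795, and genes at 1 or more in at least 3 libraries were kept (15354 genes). All 10 members passed. A pseudocount of 1 was added before taking log2, and the 6 groups were fitted together by limma with a mean-variance trend (version 3.58.1 under R 4.3.3; 12 residual degrees of freedom). The design had allowed for counts; recovered reads went into edgeR 4.0.16 and DESeq2 1.42.0 as alternatives. Genes named are the 10 members, the 3 highest and 3 lowest genes of each other list by mean response, and by likeness up to 3 genes for each member with a mean of at least 20. Members and lists were chosen with earlier results of these data known. Replicates are biological triplicates per the series text. The script was tested on simulated data. Intervals cover 95%.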

Additional observations from a re-analysis of the deposited data

Results flagged for a closer look

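For each of 8 members the response to THZ1 was called different between 2 lines by the test of the difference itself (log2, limma adjusted p). The call of DUSP4 carries a limit given below. The pair of lines given for each is the called pair with the largest absolute difference. The share of all genes called in at least 1 pair was not counted. Of all genes, 42.7% were called for PANC-1 minus BxPC-3, 13.8% for MiaPaCa-2 minus BxPC-3 and 38.9% for PANC-1 minus MiaPaCa-2. For PANC-1 minus BxPC-3 the differences were −1.74 for SPRY4 (adjusted p = 3.8e-08), 1.30 for SPRY1 (adjusted p = 2.77e-05), 1.16 for SPRY2 (adjusted p = 0.000496) and 0.96 for DUSP4 (adjusted p = 0.027). For MiaPaCa-2 minus BxPC-3 they were −0.97 for SPRED2 (adjusted p = 0.0126), 0.82 for DUSP1 (adjusted p = 0.00625) and 0.68 for DUSP6 (adjusted p = 0.00882). None of these was called on the ERCC scale (limma adjusted p of 0.0842 for SPRED2, 0.191 for DUSP1 and 0.155 for DUSP6). For PANC-1 minus MiaPaCa-2 the difference was −2.03 for DUSP2 (adjusted p = 1.01e-05). The DUSP4 call was lost without any 1 of BxPC-3 THZ1 replicate 1 or 3, PANC-1 THZ1 replicate 2 or 3, BxPC-3 DMSO replicate 3 and PANC-1 DMSO replicate 2 or 3 (0.78 to 0.95, adjusted p of 0.0504 to 0.0736). It rests on 14 to 26 reads per library in PANC-1. At such levels the added 1 draws the PANC-1 response of DUSP4 toward 0, so the difference nearly repeats the BxPC-3 fall of −0.97. Causes were not tested.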

How the results depend on the processing

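Of 2700 recomputed member values 2489 kept their side of the threshold, among them 71 uncalled values whose sign turned; 149 lost the call, 51 gained it, and 11 that were called before or after turned sign. Of 1080 values of the other named genes the numbers were 992 (with 25 such uncalled), 31, 40 and 17. The cause was not tested. In PANC-1 the members called were 2 with equal sums, pseudocount 0.25 or no filter, 1 with TMM or DESeq2 size factors, edgeR or the replicate block, and 0 with PANC-1 libraries alone; leaving out each library gave 0 to 4. All genes called in PANC-1, 77 in the fit reported, numbered 2802 after ERCC scaling, 168 at equal sums, 23 under TMM factors, 18 with DESeq2 size factors, 51 and 145 with pseudocounts 0.25 and 5, 26 without a filter, 144 with a filter of 5, 12 with the replicate block, 0 with PANC-1 alone, 19 by edgeR and 739 by DESeq2; leaving out each library gave 5 to 3334. The deviations of same-numbered THZ1 and DMSO libraries correlated at 0.455, 0.3 and −0.031 for PANC-1 replicates 1, 2 and 3. In the other lines the correlations were −0.003 to 0.14. The fit reported left the replicate number out, and the block stands here only.

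For MiaPaCa-2 minus BxPC-3 the members called were 3 on the ERCC scale and all genes called 1210 there, 6129 with the compared groups alone and 1559 to 5426 leaving out each library; for PANC-1 minus MiaPaCa-2 the members called were 7 on the ERCC scale. Calls higher and lower moved with the scale: 6147 and 2908 in BxPC-3 became 207 and 9067 (ERCC), 1434 and 6567 (equal sums), 3972 and 4284 (TMM) and 4233 and 4068 (DESeq2 size factors); 5598 and 3042 in MiaPaCa-2 became 226 and 11223, 1456 and 6579, 3998 and 3952, and 4116 and 3854; 42 and 35 in PANC-1 became 6 and 2796 (ERCC), 13 and 155 (equal sums), 9 and 14 (TMM), and 6 and 12. For the response differences, 942 and 1176 (MiaPaCa-2 minus BxPC-3) became 388 and 822 (ERCC), 1192 and 930 (equal sums), 1299 and 853 (TMM) and 1179 and 902 (DESeq2 size factors); 1828 and 4733 (PANC-1 minus BxPC-3) became 4432 and 244, 4723 and 795, 3065 and 2263, and 2884 and 2494; 1775 and 4203 (PANC-1 minus MiaPaCa-2) became 6450 and 246, 4688 and 776, 2706 and 2396, and 2611 and 2451. For DMSO levels, 5757 and 3857 (MiaPaCa-2 minus BxPC-3) became 7644 and 2361 (ERCC), 4598 and 4979 (TMM) and 4612 and 4910 (DESeq2 size factors), and 4295 and 5036 (PANC-1 minus MiaPaCa-2) became 2985 and 6343 (ERCC).

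The values called before or after whose sign turned were the following; the uncalled ones are not listed. On the ERCC scale, in BxPC-3: DUSP5 −0.81, SPRED1 −0.90, SPRED2 −0.90, DUSP12 −0.69, DUSP22 −0.35, FOSL1 −1.13, ETV4 −0.69 and EPHA2 −0.073. On that scale in MiaPaCa-2: DUSP2 −0.14, SPRY4 −0.96, DUSP12 −1.13, DUSP22 −1.03, DUSP9 −0.46 and ETV4 −1.02; and for PANC-1 minus MiaPaCa-2, DUSP6 0.78 and SPRY4 0.53. With equal sums, in BxPC-3: DUSP5 −0.36, DUSP12 −0.28, FOSL1 −0.67 and ETV4 −0.26; in MiaPaCa-2: SPRY4 −0.32, DUSP12 −0.51, DUSP22 −0.41 and ETV4 −0.39; and for PANC-1 minus MiaPaCa-2, SPRY4 0.18. FOSL1 in BxPC-3 was −0.26 with TMM factors and −0.26 by edgeR, and SPRY1 was −0.012 for MiaPaCa-2 minus BxPC-3 at pseudocount 5. FOS in MiaPaCa-2 was −0.13 on the ERCC scale. Depth limits DUSP4 outside BxPC-3 (3 to 26 reads).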
